A study of Homo sapiens with 18 samples.

Results

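The nuclear genes for subunits of the oxidative phosphorylation complexes were followed in U251 cells, an established human glioblastoma line, over 48 h after transfection. Members were taken by gene symbol from the annotation of the array: NDUFA, NDUFB, NDUFC, NDUFS and NDUFV genes, NDUFAB1, the SDH genes, the UQCR genes, the COX4I1 to COX8A subunits and the ATP5 subunits, without assembly factors and pseudogenes. This gave 66 genes of the 11963 genes with a probe set of their own, 28 of complex I, 3 of complex II, 6 of complex III, 14 of complex IV and 15 of complex V. NDUFA4 is listed under its newer symbol COXFA4 and was counted in complex IV. The study compared 3 treatments. Control cells were not transfected, siNeg cells received an siRNA that serves as negative control, and siMPS1 cells received one that targets MPS1, the spindle checkpoint kinase encoded by TTK. Each was measured at 6, 24 and 48 h after transfection on 2 arrays, which makes 9 groups and 18 arrays, and the labels give 2 pmol of siRNA. Thus siMPS1 against Control also holds the effect of transfecting, while siNeg carries that step. All groups are 1 cell line, and separate cultures are not stated for the 2 arrays of each group, so that the p-values below measure the spread between these arrays, which may be technical, and the number of arrays limits their precision.

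Oxidative phosphorylation couples the oxidation of nutrients to ATP synthesis in the inner mitochondrial membrane. Complex I takes electrons from NADH and complex II from succinate, complex III passes them to cytochrome c, complex IV passes them to oxygen, and complexes I, III and IV pump protons whose return through complex V, the ATP synthase, drives ATP formation. Most subunits are encoded in the nucleus and imported, whereas a few subunits of complexes I, III, IV and V are encoded in mitochondrial DNA, and those genes are not among the members. Glioblastoma cells are known for strong glycolysis alongside a working respiratory chain.

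Expression is given as log2 signal, that is log2 of the array signal plus 3, and a log2 fold change is a difference of group means on that scale, which understates the change of dim genes. Genes were tested with limma over all 18 arrays, and a gene was called, and is said to have risen or fallen, at an adjusted p (Benjamini-Hochberg over 7828 genes within each comparison, two-sided) under 0.05. Of the 66 members, 64 passed the filter on low signals. The other two were the muscle isoforms COX6A2, with a log2 signal between 2.25 and 4.39 in the 18 arrays, and COX7A1, between 1.75 and 3.01, and they were not tested. A further 6 symbols of the family, ATP5MF, NDUFC2, NDUFS5, NDUFS8, UQCRH and UQCRHL, were measured only by probe sets that name several genes and were not analysed singly. For 29 members the probe set used is of a type that can match several transcripts of a gene or family, and for 8 it is of a type that can match unrelated transcripts, so signals of close copies cannot be told apart there.

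The array medians of the deposited log2 values lay between 4.30 and 4.56. TTK had log2 signals of 4.07 and 4.27 in siMPS1 at 6 h, 5.23 and 4.74 at 24 h and 4.78 and 4.26 at 48 h, below both siNeg arrays at each time (5.48 and 5.71, 6.86 and 6.89, 6.72 and 6.92). The log2 fold change of TTK against siNeg was -1.43, -1.88 and -2.30, each called. Of the 7 markers of the glial lineage that were measured, 6 passed the filter, with VIM between 11.7 and 12.2 and S100B, the exception, between 1.67 and 3.60. GFAP was dim, at 2.00 to 5.01. Of the markers of other cell types with a probe set, 2 of 3 for neurons (SYT1 and SNAP25), 1 of 4 for epithelium (KRT8), 1 of 4 for blood (HBB) and 0 of 3 for endothelium passed the filter. The 2 siMPS1 arrays at 48 h stood apart in the array's RNA quality controls: the log2 ratio of the 3′ to the 5′ probe set of ACTB was 0.87 and 0.92 there and 0.10 to 0.43 in the other 16 arrays, and for GAPDH it was 0.29 and 0.30 against -0.03 to 0.14.

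The range of the 9 group means was 0.22 to 1.14 log2 units with a median of 0.55 over the 64 members, and the median over all 7828 genes was 0.79, a range that 10 of the 64 members exceeded. NDUFA3, NDUFB3 and NDUFB8, accessory subunits of complex I, had the widest ranges. The lowest group mean was at 6 h in siNeg for 33 members and at 6 h in Control for 11, and the highest was at 48 h for 57 members, 24 of them in siMPS1, 19 in Control and 14 in siNeg. These are orders of group means, with no test. Within the complexes the members with the highest mean signal were NDUFAB1, SDHC, UQCRB, COX7B and ATP5F1E, which is no ranking of transcript amounts because probe sets differ in their affinity.

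**Figure D1:**
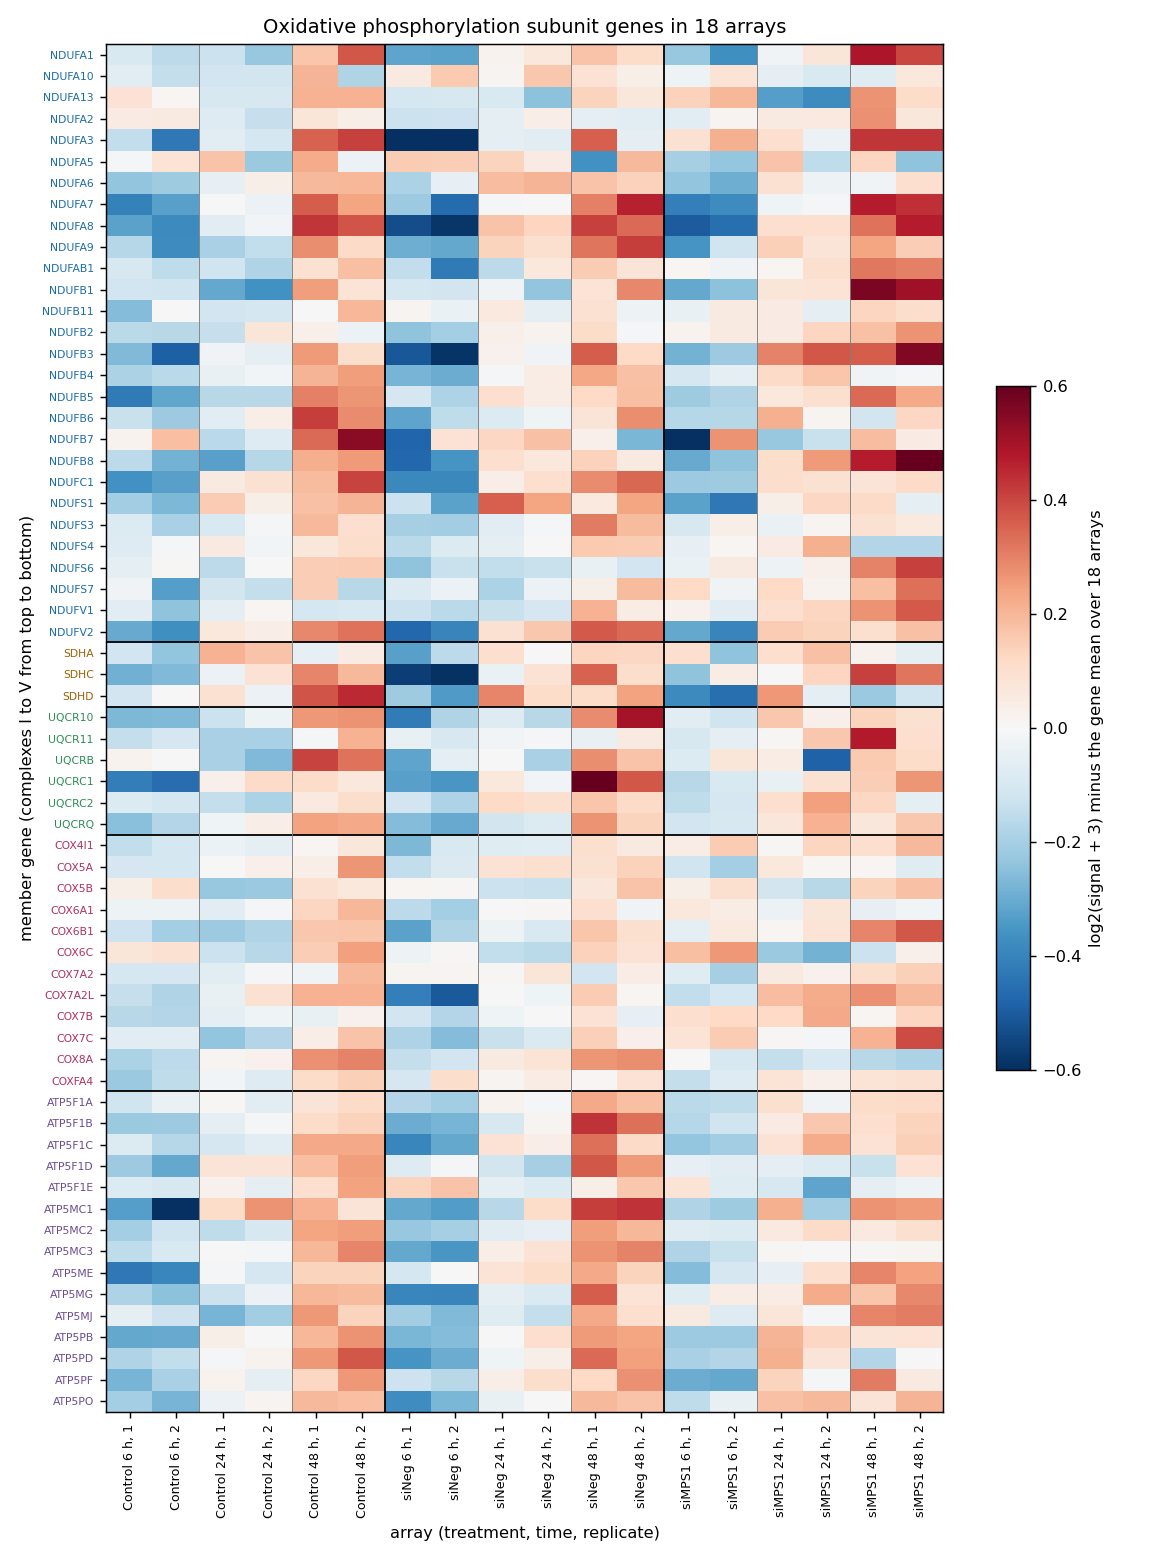
The plot by array shows the log2 signal of each of the 64 members minus its mean over the 18 arrays, with rows grouped by complex and columns by treatment, time and replicate; colours are clipped at 0.6 log2 units in either direction. The columns at 48 h are mostly above the gene means and those at 6 h mostly below, and COX8A is below its mean in the 2 siMPS1 arrays at 48 h.

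In untransfected cells many of the subunit genes rose between 24 and 48 h and none fell. Of the 64 members, 36 rose, which is 56.3%, and 0 fell, beside 8.00% of all genes tested that rose and 11.6% that fell in this comparison. The median change was 0.23 over the members and -0.05 over all genes. The members' 2 arrays at 48 h did not overlap the 2 at 24 h for 56 of 64, beside 61.6% of all genes, and 61 of 64 had a mean higher at 48 h. At an unadjusted p under 0.05, 49 members were higher and 0 lower, with no share of all genes at that threshold given beside them. In such bulk samples, a larger share of cells that express a gene and more of its RNA per cell cannot be told apart.

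Complex I, the NADH dehydrogenase, had 16 risen of 28 members with a median change of 0.24. NDUFB1, an accessory subunit of the membrane arm, had log2 signals of 8.84 and 8.79 at 24 h and 9.41 and 9.24 at 48 h, a change of 0.50 (SE 0.08, adjusted p = 0.000269). NDUFB5, of the same arm, went from 9.03 and 9.03 to 9.50 and 9.46, by 0.45 (SE 0.06, adjusted p = 8.8e-05). Both arrays at 48 h lay above both at 24 h for each of these genes. NDUFA8 went from 8.34 and 8.39 to 8.83 and 8.78, by 0.44 (SE 0.07, adjusted p = 0.000177). NDUFA1, a small accessory subunit encoded on the X chromosome, went from 10.06 and 9.97 to 10.36 and 10.56, by 0.45 (SE 0.07, adjusted p = 0.0003). NDUFA3 rose by 0.47 and NDUFB8 by 0.48. Among the core subunits that carry the flavin or iron-sulfur clusters, NDUFV2 rose by 0.26, while NDUFS1 (0.10, 95% interval -0.11 to 0.30), NDUFS7 (0.12, -0.13 to 0.36) and NDUFV1 (-0.08, -0.23 to 0.08) were not called. NDUFB7 changed by 0.56 with an SE of 0.21 and was not called.

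In complex III, 5 of 6 members rose. UQCRB, a subunit at the ubiquinone-binding side of the complex, showed the largest change among the called members, from 9.73 and 9.66 to 10.33 and 10.25, by 0.59 (SE 0.12, adjusted p = 0.00234). The small subunits UQCR10 (0.35), UQCR11 (0.29) and UQCRQ (0.23) and the core protein UQCRC2 (0.25) also rose, and the core protein UQCRC1 was not called (0.01, 95% interval -0.14 to 0.17). In complex II, succinate dehydrogenase, the membrane anchor SDHD rose from 8.25 and 8.12 to 8.53 and 8.60, by 0.38 (SE 0.10, adjusted p = 0.00988). The other anchor, SDHC, changed by 0.22 and the flavoprotein SDHA by -0.19, neither called.

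Complex IV, cytochrome c oxidase, had 6 risen of 12 members tested, all of them nuclear subunits around the mitochondrially encoded core. COX6B1 went from 8.93 and 8.97 to 9.31 and 9.31, by 0.36 (SE 0.07, adjusted p = 0.000996), and COX6C from 10.21 and 10.17 to 10.49 and 10.58, by 0.34 (SE 0.06, adjusted p = 0.000789). COX7C, COX5B, COX8A and COX6A1 rose by 0.31, 0.30, 0.27 and 0.20. Complex V had 8 risen of 15. ATP5MJ, a small membrane subunit, went from 9.39 and 9.46 to 9.94 and 9.81, by 0.44 (SE 0.07, adjusted p = 0.000223). The peripheral stalk subunits ATP5PD (0.31), ATP5PB (0.22) and ATP5PO (0.20), the rotor subunit gamma ATP5F1C (0.31) and ATP5MG (0.28) rose. ATP5F1A (0.12, 95% interval 0.01 to 0.24) and the catalytic subunit ATP5F1B (0.16, 0.03 to 0.28) were not called.

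**Figure D2:**
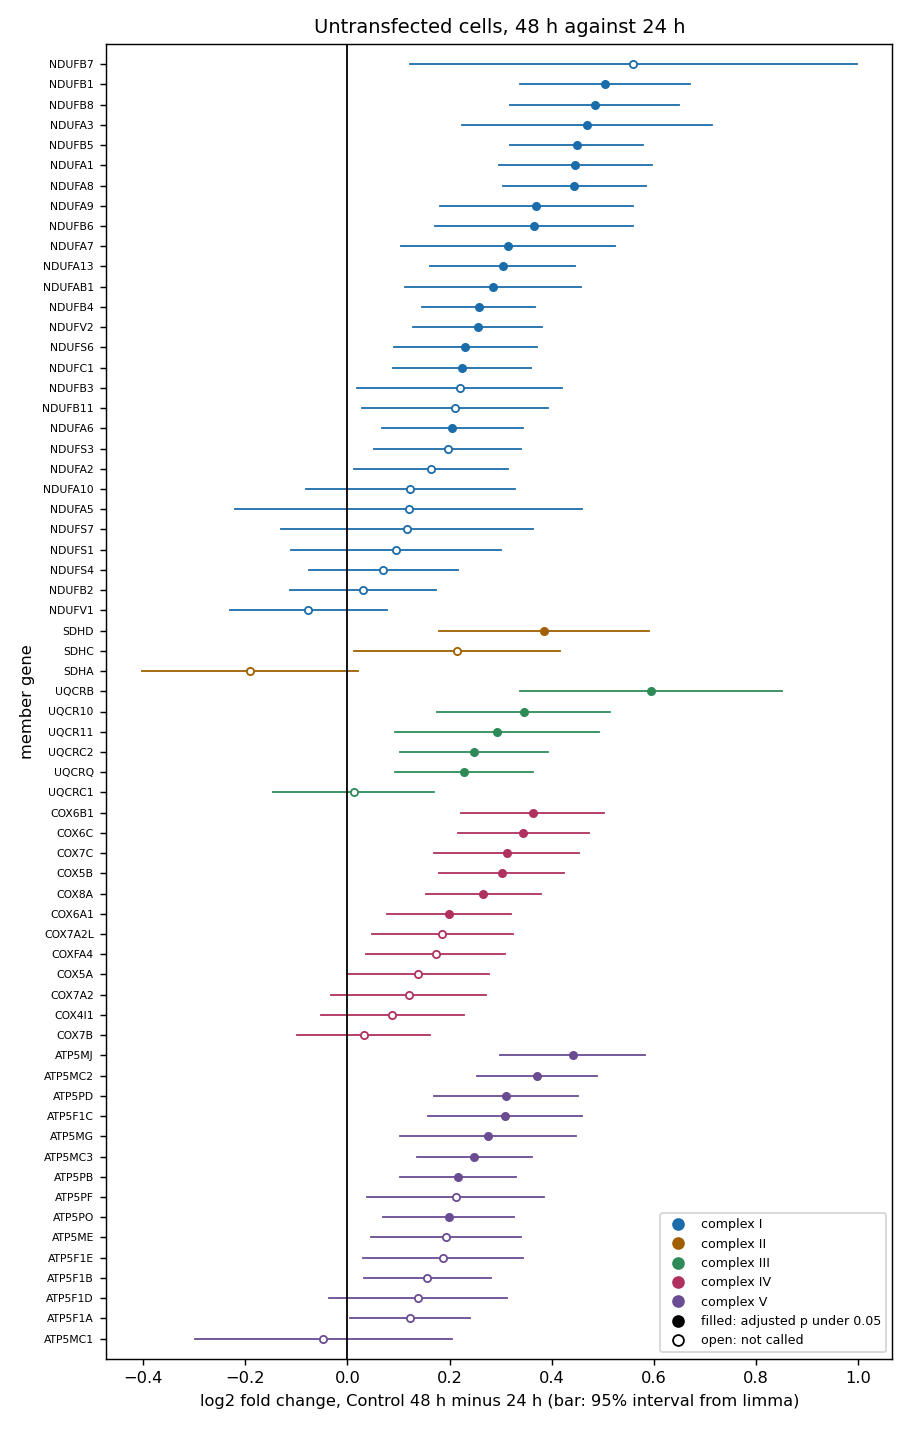
The plot of Control 48 h minus 24 h shows the log2 fold change of each of the 64 members with its 95% interval from limma, coloured by complex; filled points were called. Most points lie to the right of 0, with UQCRB and NDUFB1 among the highest called, and none to its left was called.

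The count depended on how arrays were put on a common scale, and the direction was the same under the 3 scalings tried. Median centring, which sets the median of all probe sets equal between arrays, moved the median of all genes in this comparison from -0.05 to 0.10, and the members to 56 risen and 0 fallen. Quantile normalization gave 29 and 0. The members' median exceeded the all-gene median by 0.28 without further scaling, by 0.28 with median centring and by 0.19 with quantile normalization. Leaving out 1 array gave 22 to 38 called members, with 22 without Control 48 h replicate 2 and 23 without Control 24 h replicate 1. Called under every one of the 28 alternatives were 14 of the 36: ATP5MC2, ATP5MC3, ATP5MJ, ATP5PD, COX6B1, COX6C, COX8A, NDUFA1, NDUFA13, NDUFA8, NDUFB1, NDUFB4, NDUFB5 and UQCRB. KRT8, the epithelial marker that passed the filter, rose by 0.65 in the same comparison, with a summed signal of the 4 epithelial markers from 163 to 172 in Control at 24 h and 257 to 261 at 48 h, and EPCAM, CDH1 and KRT19 stayed under the filter. Its part in the result was not tested.

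Other groups of genes with many subunits also had members that rose and none that fell in the same comparison, beside 8.00% of all genes that rose. Of the mitochondrial ribosomal protein genes 19 of 49 rose and 0 fell, of the proteasome subunit genes 8 of 33 and 0, and of the cytosolic ribosomal protein genes 4 of 54 and 0. The median changes were 0.22, 0.12 and 0.03 in that order, beside 0.23 over the members. The mean was higher at 48 h for 45 of the 49 mitochondrial ribosomal protein genes, so the rise was not particular to the members. The groups were not tested against one another.

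Between 6 and 24 h in untransfected cells, how the members moved beside all genes depended on the scaling. Of the 64 members, 23 rose and 3 fell, beside 27.1% of all genes that rose and 15.9% that fell, and the median change was 0.12 over both the members and all genes. The direction rests on the scale: with median centring, which moved the all-gene median from 0.12 to -0.05, 4 members rose and 14 fell. With quantile normalization 29 rose and 2 fell, and the members' median was 0.16 beside 0.05 over all genes. ATP5MC1, one of the genes of the proton-carrying c subunit, had the largest rise, from 7.81 and 7.52 to 8.25 and 8.40, by 0.66 (SE 0.12, adjusted p = 0.000209). UQCRC1 went from 9.10 and 9.06 to 9.55 and 9.63, by 0.51 (SE 0.07, adjusted p = 2.53e-05), NDUFC1 rose by 0.42 and NDUFV2 by 0.39. The falls were COX5B, from 9.13 and 9.20 to 8.87 and 8.87, by -0.30 (SE 0.06, adjusted p = 0.000471), COX6C (-0.23) and NDUFB1 (-0.22). COX5B, COX6C and NDUFB1 then rose between 24 and 48 h, so that their lowest value of the 3 times in Control was at 24 h. Leaving out 1 array gave 14 to 27 calls, with 14 without Control 6 h replicate 1, 15 without Control 6 h replicate 2 and 15 without Control 24 h replicate 2. KRT8 fell (-1.16) over this interval, with a summed signal of the 4 epithelial markers of 354 to 376 at 6 h and 163 to 172 at 24 h. Of the neuronal markers, SYT1 fell as well (-0.44), with a summed signal of the 3 measured markers of 118 to 135 at 6 h and 95.9 to 101 at 24 h. Of the glial lineage markers 2 rose and 2 fell, and the part of these markers was not tested. Called under every alternative were ATP5MC1, COX5B, COX6C, NDUFC1, NDUFV2 and UQCRC1.

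The time course was also described in the transfected cells, where no test between times was made. From 6 to 48 h, 64 of 64 members had a higher mean in Control, 60 in siNeg and 57 in siMPS1, with median changes of 0.35, 0.39 and 0.24. Of all genes, 53.6%, 52.3% and 52.0% were higher, with medians of 0.05, 0.03 and 0.03. From 24 to 48 h the member counts were 61, 56 and 44, with medians of 0.23, 0.20 and 0.09. The share of all genes that were higher was then 42.9%, 49.1% and 51.4%. After subtracting the all-gene median, the members' median change from 24 to 48 h was 0.28, 0.20 and 0.075 in the same order, and 0.19, 0.16 and 0.087 with quantile normalization. The members with their highest mean at 48 h numbered 61 in Control, 55 in siNeg and 41 in siMPS1, beside 30.5%, 34.9% and 33.1% of all genes. By complex, the mean over members in siMPS1 continued upward to 48 h in complexes I, III, IV and V. In complex II, with 3 members, it ended below its value at 24 h.

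**Figure D3:**
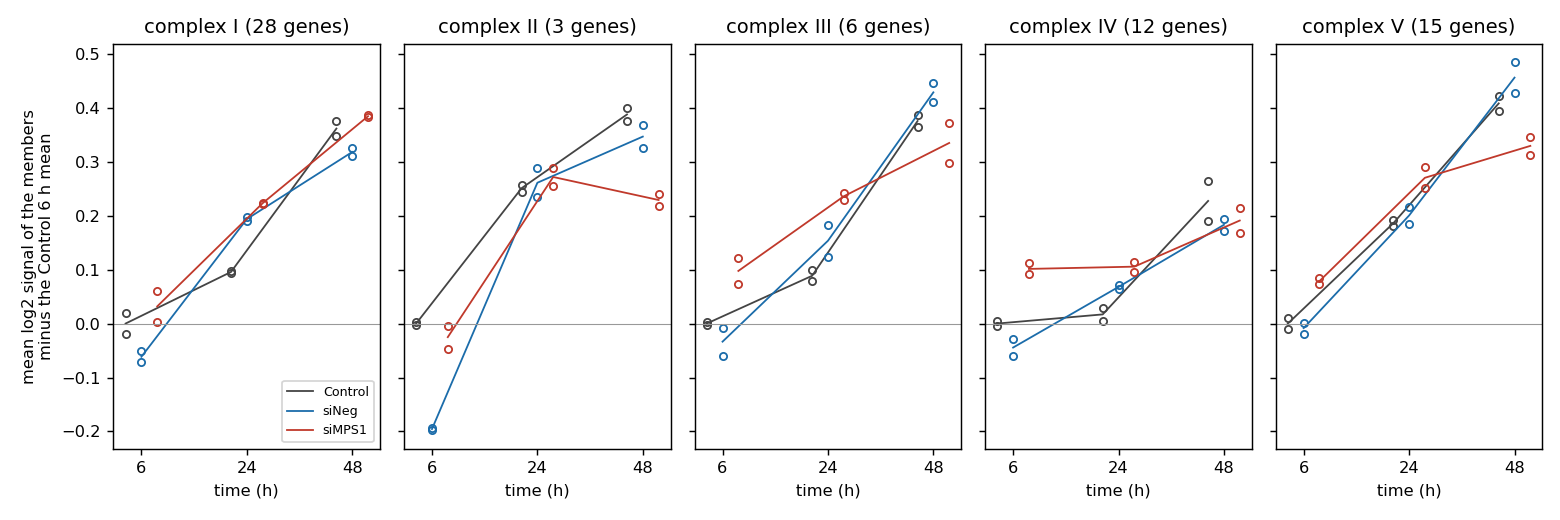
The plot by complex shows, for each array, the mean log2 signal of the members of that complex minus the Control 6 h mean, against time; open points are arrays and lines join the means of 2 arrays. From 24 to 48 h all 3 treatments climb in complexes I, III, IV and V. At 48 h both siMPS1 arrays lie below both siNeg and both Control arrays in complexes II and V.

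At 48 h, siMPS1 cells had members changed in both directions against siNeg. Of 64 members, 8 rose and 13 fell, beside 15.7% of all genes that rose and 13.5% that fell, and the median change was -0.03 over the members and 0.03 over all genes. Against Control, 7 rose and 16 fell, beside 15.3% and 12.2%. The 2 comparisons share the siMPS1 arrays. The balance of rises and falls moved with the scaling: against siNeg it was 13 and 13 with quantile normalization and 6 and 16 with median centring, and against Control 8 and 12, and 4 and 18. Complex V had 0 risen and 5 fallen of 15 against siNeg and 0 and 6 against Control, and complex I had 5 and 4 of 28, and 6 and 5. Fallen in both were ATP5F1D, ATP5MC3, ATP5PB, ATP5PD, COX8A, NDUFB4, NDUFC1, NDUFS4, NDUFV2 and SDHD, and risen in both were COX7C, NDUFB1, NDUFB8 and NDUFS6, that is 10 and 4 of 64 members, beside 8.05% of all genes that fell and 8.47% that rose against both. The 3′ to 5′ ratios of ACTB and GAPDH given above and the 18S ribosomal controls, with log2 signals of 10.8 for the 3′ probe set in the 2 siMPS1 arrays against 9.47 and 9.50 in siNeg, moved with this group, and their part in these changes was not tested.

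COX8A, a small nuclear subunit of cytochrome c oxidase, had the smallest p of the members that fell. Its log2 signals at 48 h were 9.60 and 9.58 in siMPS1, 10.03 and 10.04 in siNeg and 10.04 and 10.06 in Control, a change of -0.45 (SE 0.05, adjusted p = 6.17e-06) against siNeg and -0.46 (SE 0.05, adjusted p = 7.35e-06) against Control. The siMPS1 arrays lay below all 4 others with no overlap. In siMPS1 the level was 9.76 and 9.67 at 6 h and 9.62 and 9.67 at 24 h, while it went from 9.62 and 9.65 at 6 h to 9.82 and 9.85 at 24 h in siNeg. It was also the member that fell against siNeg at 24 h (-0.18, SE 0.05, adjusted p = 0.0331), though against Control at that time it changed by -0.14 and was not called.

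ATP5PD, subunit d of the peripheral stalk that holds the ATP synthase head still, had 10.26 and 10.43 in siMPS1, 10.77 and 10.68 in siNeg and 10.69 and 10.80 in Control. It fell, with changes of -0.38 (SE 0.07, adjusted p = 0.000346) against siNeg and -0.40 (SE 0.07, adjusted p = 0.000264) against Control, with no overlap. At 24 h its values were 10.65 and 10.51, 10.41 and 10.47 and 10.42 and 10.45 in the same order, and no difference was called. SDHD, a membrane anchor of complex II, had 7.93 and 8.04 in siMPS1, 8.27 and 8.40 in siNeg and 8.53 and 8.60 in Control. The changes were -0.35 (SE 0.10, adjusted p = 0.0119) against siNeg and -0.58 (SE 0.10, adjusted p = 0.000271) against Control. The call against siNeg was lost on leaving out replicate 2 of siNeg at 48 h, and likewise replicate 1 of siMPS1.

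NDUFS4, an accessory subunit of the peripheral arm of complex I in which loss is known to cause Leigh syndrome, had 8.12 and 8.12 in siMPS1, 8.46 and 8.45 in siNeg and 8.37 and 8.40 in Control. It fell, with changes of -0.33 (SE 0.07, adjusted p = 0.0015) against siNeg and -0.26 (SE 0.07, adjusted p = 0.00886) against Control. Also fallen were NDUFB4, by -0.22 and -0.25, NDUFC1 by -0.22 and -0.20, and NDUFV2 by -0.22 and -0.17, against siNeg and Control in that order. In complex V, the central stalk subunit delta ATP5F1D fell, by -0.34 and -0.24 and the peripheral stalk subunit b ATP5PB by -0.17 and -0.15. The catalytic subunit beta ATP5F1B fell against siNeg (-0.26, SE 0.06, adjusted p = 0.00256), with 10.48 and 10.52 in siMPS1 and 10.82 and 10.71 in siNeg, but Control had 10.49 and 10.52 and the change against it was -0.01 (95% interval -0.13 to 0.12). UQCRC1 was alike, -0.28 against siNeg and 0.12, not called, against Control, and UQCR10 changed by -0.28 and -0.15, the latter not called.

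Of the members that rose against both, a share not above that of all genes, NDUFB1, NDUFB8 and NDUFS6 belong to complex I, which holds 28 of the 64. NDUFB1 had 9.72 and 9.66 in siMPS1, 9.24 and 9.44 in siNeg and 9.41 and 9.24 in Control, a rise of 0.35 (SE 0.08, adjusted p = 0.00277) and 0.37 (SE 0.08, adjusted p = 0.00223). NDUFS6, an accessory subunit of the NADH-oxidizing module, had 10.07 and 10.19 in siMPS1, 9.73 and 9.66 in siNeg and 9.92 and 9.93 in Control, a rise of 0.44 (SE 0.07, adjusted p = 7.97e-05) and 0.20 (SE 0.07, adjusted p = 0.0293). In both genes the siMPS1 arrays lay above all others at 48 h. NDUFS6 was also lower in siNeg than in Control at 48 h (-0.23, SE 0.07, adjusted p = 0.0269). NDUFB8 rose by 0.46 and 0.32 on the probe set used, but of its 2 other probe sets 1 gave 0.24 and 0.11 and the dimmer one -0.46 and -0.04, and with the mean of the 3 the calls were lost. COX7C rose by 0.21 and 0.19, and of its 2 other probe sets 1 gave 0.16 and 0.08 and the dimmer one -0.26 and -0.06. NDUFV1, the flavoprotein that binds NADH, rose against Control (0.42, SE 0.07, adjusted p = 0.000406), with 8.97 and 9.08 against 8.60 and 8.61, and was not called against siNeg (0.19, 95% interval 0.04 to 0.35). NDUFA1, NDUFA2, UQCR11 and COX6B1 rose against siNeg, by 0.31, 0.23, 0.28 and 0.20. Against Control they changed by 0.18, 0.12, 0.19 and 0.17, none called.

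**Figure D4:**
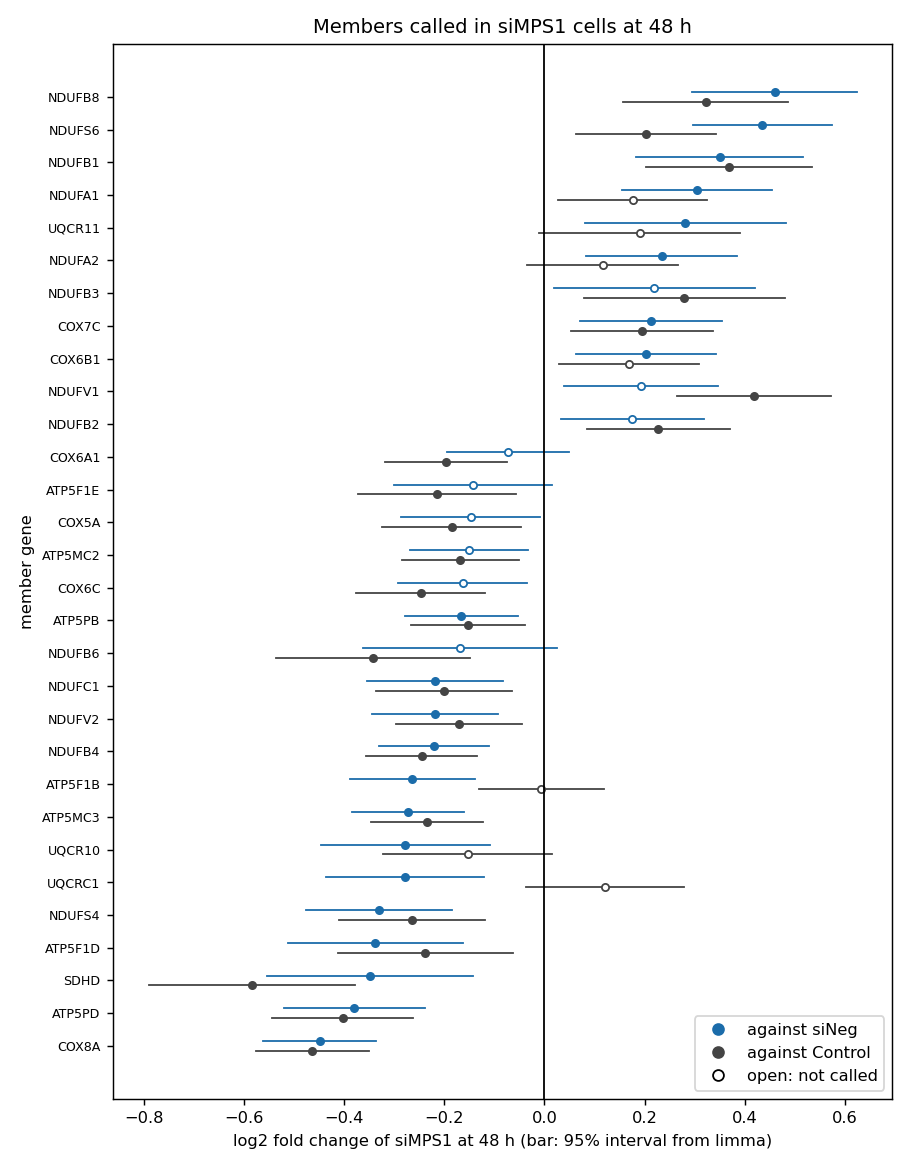
The plot of siMPS1 at 48 h shows the log2 fold change against siNeg (blue) and against Control (grey) with 95% intervals for the members called in either, ordered by the change against siNeg; open points were not called. COX8A, ATP5PD and SDHD lie at the low end against both, and NDUFB1 lies above 0 against both.

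The calls at 48 h kept under every alternative were ATP5F1B, ATP5MC3, ATP5PD, COX8A, NDUFA1, NDUFS4 and NDUFS6 against siNeg, and ATP5PD, COX8A, NDUFB1, NDUFB4, NDUFV1 and SDHD against Control. Leaving out 1 array gave 13 to 23 called members against siNeg, with 13 without siMPS1 48 h replicate 1, and 11 to 24 against Control, with 11 without Control 48 h replicate 2, 13 without siMPS1 48 h replicate 1 and 13 without siMPS1 48 h replicate 2. Of the 6 glial lineage markers tested, NES and SOX2 were lower in siMPS1 than in siNeg at 48 h (-0.41 and -0.41), and 0 rose. Both were higher in siNeg than in Control (0.64 and 0.57). Against Control at 48 h, 2 of the 6 rose in siMPS1 and 0 fell. SOX9 had 8.43 and 8.10 in siMPS1, 8.09 and 8.25 in siNeg and 7.64 and 7.70 in Control. The part of these markers was not tested. KRT8 was not called at 48 h (0.19 against siNeg).

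Whether the difference between siMPS1 and siNeg was itself different at 2 times was tested with the interaction terms of the same fit. From 6 to 24 h, 0 of 64 members changed upward and 3 downward, beside 1.89% and 1.80% of all genes. From 24 to 48 h, 3 changed upward and 10 downward, beside 8.93% and 6.83%, and from 6 to 48 h 3 and 18, beside 10.9% and 9.30%. These 3 tests share arrays with one another. COX8A changed by -0.53 (SE 0.08, adjusted p = 0.000112) from 6 to 48 h, and ATP5PD by -0.52 (SE 0.10, adjusted p = 0.0011) from 24 to 48 h. In the other direction NDUFB1 changed by 0.52 (SE 0.11, adjusted p = 0.00332) from 6 to 48 h.

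The promoters of 3 members that fell and 2 that rose at 48 h are shown as examples of members described above, chosen after their values were seen. The sequences are the 250 bases before the annotated start in the RefSeq table (GRCh38.p14), on the strand of the gene, 5′ to 3′, and 58 of the 66 members had an entry. The letters of 3 motifs known from nuclear genes of the respiratory chain were searched on both strands in the 300 bases from 250 before to 50 after the start: CCGGAAG, the core of sites of the ETS factor GABP, GCGCATGC, bound by NRF1, and AAGATGGC, bound by YY1. Capitals mark a match on either strand. COX8A lies at chr11:63974370-63974619 (plus strand), ATP5PD at chr17:75046970-75047219 (minus strand) and SDHD at chr11:112086623-112086872 (plus strand), and they fell. NDUFS6 lies at chr5:1801157-1801406 (plus strand) and NDUFB1 at chr14:92121707-92121956 (minus strand), and they rose.
COX8A: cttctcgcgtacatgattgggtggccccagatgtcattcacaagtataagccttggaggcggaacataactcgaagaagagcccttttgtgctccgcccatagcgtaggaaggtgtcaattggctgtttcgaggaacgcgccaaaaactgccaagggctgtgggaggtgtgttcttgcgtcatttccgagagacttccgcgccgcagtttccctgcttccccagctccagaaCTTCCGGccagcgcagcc
ATP5PD: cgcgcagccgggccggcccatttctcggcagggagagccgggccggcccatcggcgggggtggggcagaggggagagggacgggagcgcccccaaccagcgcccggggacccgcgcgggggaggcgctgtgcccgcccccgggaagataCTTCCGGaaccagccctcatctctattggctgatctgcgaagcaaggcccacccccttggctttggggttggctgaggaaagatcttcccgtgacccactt
SDHD: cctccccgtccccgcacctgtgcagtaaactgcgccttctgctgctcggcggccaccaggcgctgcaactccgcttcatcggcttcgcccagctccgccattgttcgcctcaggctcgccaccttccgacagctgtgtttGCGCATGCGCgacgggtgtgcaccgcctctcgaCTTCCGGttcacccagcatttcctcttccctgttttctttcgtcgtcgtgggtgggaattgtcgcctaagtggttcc
NDUFS6: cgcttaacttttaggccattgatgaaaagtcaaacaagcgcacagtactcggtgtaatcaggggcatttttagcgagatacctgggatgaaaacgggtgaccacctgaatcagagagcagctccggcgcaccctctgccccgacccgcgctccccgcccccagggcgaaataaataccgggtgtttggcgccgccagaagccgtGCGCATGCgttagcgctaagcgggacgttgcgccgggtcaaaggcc
NDUFB1: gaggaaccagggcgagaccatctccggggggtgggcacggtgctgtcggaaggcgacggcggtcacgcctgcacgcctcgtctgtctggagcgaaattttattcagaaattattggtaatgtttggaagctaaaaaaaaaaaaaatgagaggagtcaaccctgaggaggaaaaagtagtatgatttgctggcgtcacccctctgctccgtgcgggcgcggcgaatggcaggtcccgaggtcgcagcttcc
COX8A, ATP5PD and SDHD hold an ETS match, SDHD also holds overlapping NRF1 matches on both strands, NDUFS6 holds an NRF1 match and NDUFB1 holds none of the 3. These 5 do not stand for the called members as a whole. Against siNeg at 48 h, the ETS letters were found for 3 of 10 fallen members with an entry and for 3 of 8 risen ones (COX6B1, NDUFA1 and UQCR11), the NRF1 letters for 2 and 1, and the YY1 letters for 3 and 1. Against Control, the ETS letters were found for 4 of 13 fallen and 0 of 7 risen, the NRF1 letters for 4 and 1, and the YY1 letters for 2 and 1. No difference between the directions was tested. Per gene, the ETS letters were found for 31.0% of the 58 members and 23.0% of the 6545 tested genes with an entry, the NRF1 letters for 22.4% and 6.60%, and the YY1 letters for 19.0% and 7.38%. A match is a run of letters in this window and was not tested for binding.

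At 6 h, siMPS1 cells had more members higher than siNeg cells. Of 64 members, 16 rose and 0 fell, beside 3.45% of all genes that rose and 4.25% that fell, and the median change was 0.12 over the members and 0.01 over all genes. Complex IV had 7 risen of 12. The arrays of the 2 groups did not overlap for 47 members, beside 53.2% of all genes. In siNeg at 6 h, 42 of 64 members had a lower mean than in Control, with a median change of -0.06 beside 0.02 over all genes. NDUFA3 had 7.93 and 8.05 in siMPS1, 7.02 and 7.23 in siNeg and 7.69 and 7.41 in Control, a rise of 0.87 (SE 0.12, adjusted p = 0.000485) against siNeg. It was the one call kept under every alternative. SDHC had 8.16 and 8.45 in siMPS1 and 7.83 and 7.81 in siNeg (0.48, SE 0.10, adjusted p = 0.00773), and 8.11 and 8.14 in Control. ATP5MG, subunit g of the ATP synthase membrane part, rose by 0.38, COX7C by 0.34 and COX7A2L, which is known for joining respiratory complexes into supercomplexes, by 0.33. COX7A2L had 9.09 and 9.13 in siMPS1, 8.83 and 8.74 in siNeg and 9.10 and 9.06 in Control, so siMPS1 lay near Control and siNeg below both. COX4I1, COX7B, COX6B1, COX6A1, COX6C, NDUFAB1, NDUFA13, NDUFB2, NDUFB4, ATP5MJ and ATP5PO rose by 0.21 to 0.28.

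These changes at 6 h were small, and their number depended on single arrays. Without siMPS1 6 h replicate 2 the count was 1, without siMPS1 6 h replicate 1 it was 10, without siNeg 6 h replicate 1 it was 4 and without siNeg 6 h replicate 2 it was 2. With median centring it was 8 and without an intensity trend in the variance 3. For SDHC, ATP5MG and COX4I1, 1 of the other probe sets had the opposite sign, -0.15, -0.49 and -0.13, and for ATP5PO the only other one did, -0.06. VIM rose in the same comparison by 0.35. Of the cytosolic ribosomal protein genes 27 of 54 rose and 0 fell, of the mitochondrial ones 3 of 49 and 0, and of the proteasome subunit genes 6 of 33 and 0. Against Control at 6 h, 5 members rose and 1 fell, beside 9.29% and 7.28% of all genes, and COX4I1, COX7B and NDUFA3 rose against both, 3 of 64 beside 1.58% of all genes. For COX4I1 neither other probe set was higher against both. The brighter one gave 0.04 against siNeg and -0.11 against Control, and the dimmer one -0.13 and 0.24. COX7B, a small subunit of complex IV, had 11.39 and 11.41 in siMPS1, 11.17 and 11.11 in siNeg and 11.12 and 11.11 in Control. Against Control the count was 10 risen and 0 fallen with quantile normalization and 0 risen and 20 fallen with median centring, which moved the all-gene median from 0.04 to -0.17, so the direction against Control at 6 h depends on the scaling. It was 1 without Control 6 h replicate 2 and 1 without siMPS1 6 h replicate 2. SDHD was the member that fell against Control (-0.36, SE 0.10, adjusted p = 0.0207), with 7.77 and 7.71 in siMPS1 and 8.04 and 8.15 in Control. The Alu control of the array was 12.9 and 13.0 in siMPS1 at 6 h against 12.5 in both siNeg arrays, and its part was not tested.

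At 24 h, 4 members rose and 1 fell against siNeg, beside 5.14% and 5.81% of all genes, a share near that of all genes. NDUFB3 had 8.31 and 8.39 in siMPS1 and 8.04 and 8.00 in siNeg (0.33, SE 0.10, adjusted p = 0.032), and UQCRQ, COX7A2L and ATP5PO rose by 0.24, 0.21 and 0.21. For ATP5PO the other probe set gave -0.45. None of the 5 calls was kept under every alternative: the count was 0 on leaving out either siNeg array at 24 h or replicate 2 of siMPS1, and 3 on leaving out replicate 1 of siMPS1. KRT8 fell (-0.32), with a summed signal of the epithelial markers of 130 to 141 in siMPS1 and 165 to 168 in siNeg. The 2 siNeg arrays at 24 h stood apart in the 18S controls, with log2 signals of 10.6 for the 3′ probe set in both, against 9.88 and 10.05 in siMPS1 and 9.91 and 9.95 in Control, and of 11.9 for the 5′ probe set in both, against 11.1 and 11.2 in siMPS1 and 10.8 in both Control arrays. The part of these values was not tested. Against Control at 24 h, 13 rose and 1 fell, beside 5.48% and 7.19% of all genes. NDUFB8 (0.43, SE 0.08, adjusted p = 0.00144), NDUFB1 (0.41, SE 0.08, adjusted p = 0.00227), with 9.22 and 9.24 in siMPS1 and 8.84 and 8.79 in Control, NDUFB3 (0.37) and UQCRC2 (0.34) had the highest folds. For NDUFB8 and UQCRC2, 1 other probe set each gave -0.05 and -0.01. NDUFA13 fell (-0.26). The count was 3 without Control 24 h replicate 1, 4 without Control 24 h replicate 2 and 3 without siMPS1 24 h replicate 2. With median centring it was 26 risen and 0 fallen, and with quantile normalization 8 and 4.

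Few members were called between siNeg and Control. In siNeg, 1 rose and 3 fell at 6 h, beside 2.84% and 0.984% of all genes, 0 rose and 0 fell at 24 h in limma, beside 0.460% and 0.473%, and 2 rose and 1 fell at 48 h, beside 6.82% and 6.11%. At an unadjusted p under 0.05 in limma, 6 members were higher and 18 lower at 6 h, 9 and 1 at 24 h, and 4 and 5 at 48 h. The share of all genes at that unadjusted threshold is not given here, so these counts have nothing to be set beside. At 6 h ATP5ME, subunit e of the ATP synthase, was higher in siNeg (0.36, SE 0.07, adjusted p = 0.00811), with 9.27 and 9.37 against 8.94 and 8.98, and NDUFA3, COX7A2L and ATP5MC3 were lower, by -0.42, -0.30 and -0.21. The other probe set of ATP5ME gave 0.04, and that of ATP5MC3 gave 0.04, the opposite sign to the one used. With median centring, which moved the all-gene median at 6 h from 0.02 to -0.14, 0 rose and 33 fell, and with quantile normalization 3 rose and 2 fell. At 48 h UQCRC1 was higher (0.40, SE 0.07, adjusted p = 0.00183), with 10.11 and 9.88 in siNeg against 9.62 and 9.58 in Control, as was ATP5F1B (0.26), and the UQCRC1 call was kept under every alternative. The count at 6 h was 0 without Control 6 h replicate 1 or siNeg 6 h replicate 2 and 2 without Control 6 h replicate 2 or either siNeg 24 h array, at 24 h it was 0 to 2 with single arrays left out, the 2 without siMPS1 48 h replicate 2, and at 48 h it was 1 without Control 48 h replicate 1. With quantile normalization 2 rose and 2 fell at 48 h.

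ATP5MC1, ATP5MC2 and ATP5MC3 encode, as is well known, the same mature c subunit of the proton-driven rotor with different import signals, and their values in Control are given side by side. ATP5MC1 rose between 6 and 24 h and changed by -0.05 (95% interval -0.30 to 0.20) between 24 and 48 h. ATP5MC2 had 9.13 and 9.22 at 6 h, 9.18 and 9.24 at 24 h and 9.58 and 9.59 at 48 h, and rose in the later interval (0.37, SE 0.06, adjusted p = 0.000186). ATP5MC3 had 10.29 and 10.36, 10.45 and 10.44 and 10.65 and 10.74 and rose in the same interval (0.25, SE 0.05, adjusted p = 0.00323). In siMPS1 at 48 h ATP5MC3, at 10.45 and 10.46, lay below 10.72 and 10.75 in siNeg and fell against both controls (-0.27 and -0.24). ATP5MC2, at 9.40 and 9.43, fell against Control (-0.17) and was not called against siNeg (-0.15, 95% interval -0.27 to -0.03). ATP5MC1 was not called against either (-0.16, -0.41 to 0.09, and 0.12, -0.13 to 0.37). The differences between the 3 genes were not tested.

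**Figure D5:**
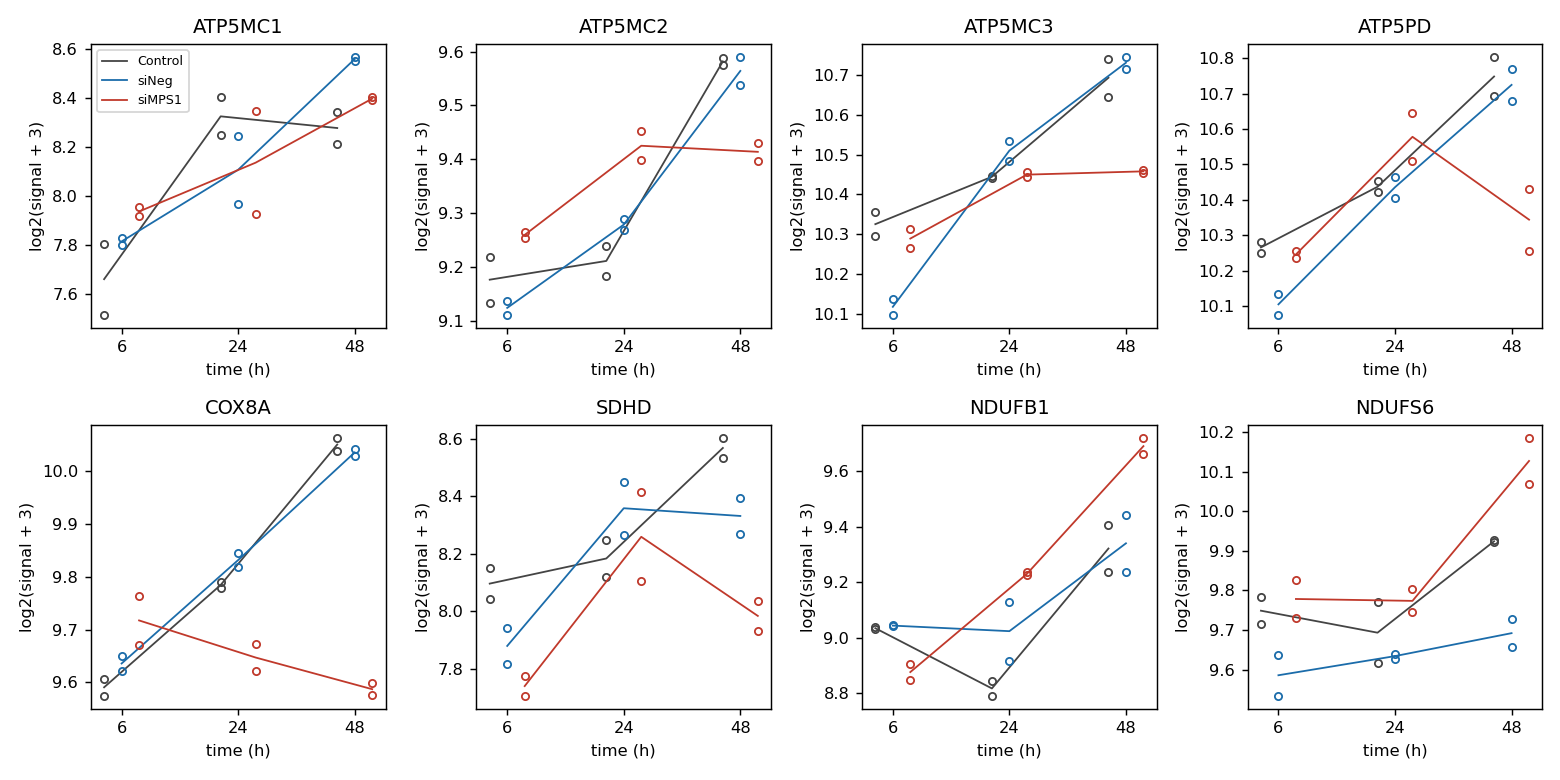
The plots of single genes show the log2 signal of both arrays (open points) and their mean (lines) at 6, 24 and 48 h in Control, siNeg and siMPS1, each panel on its own axis, for the 3 c-subunit genes, 3 other members that were lower and 2 that were higher in siMPS1 at 48 h. COX8A does not climb in siMPS1 while it climbs in Control and siNeg, and NDUFB1 ends highest in siMPS1.

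Of the tissue isoform pairs, the ubiquitous forms passed the filter. COX6A1 rose against siNeg in siMPS1 at 6 h (0.23), rose in Control from 24 to 48 h (0.20) and fell in siMPS1 against Control at 48 h (-0.20, SE 0.06, adjusted p = 0.0173), with 10.64 and 10.67 against 10.81 and 10.89. COX7A2 was not called in any pairwise comparison, and COX4I1 was called in siMPS1 at 6 h as above. COX4I2 was not analysed here. COXFA4, a subunit first assigned to complex I as NDUFA4, was not called in any comparison; in Control it went from 10.72 and 10.66 at 24 h to 10.84 and 10.88 at 48 h (0.17, 95% interval 0.04 to 0.31).

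Genes that work with the complexes had calls in Control from 24 to 48 h as well, to be read beside the 8.00% of all genes that rose and 11.6% that fell. Of 8 electron carriers and dehydrogenases 5 rose and 0 fell, among them ETFB (0.54, SE 0.11, adjusted p = 0.00225) and ETFA (0.29) of the electron transfer flavoprotein, and GPD2 (0.59). Of the 29 assembly factors tested, of 54 listed, 9 rose, with NDUFAF3 (0.83, SE 0.12, adjusted p = 0.000142) and COX11 (0.49), and 1 fell, COX20 (-0.91). Of 16 genes of the TCA cycle and pyruvate dehydrogenase 4 rose and 0 fell, led by SUCLG2 (0.54, SE 0.09, adjusted p = 0.000339), and of 8 mitochondrial carriers, porins and the ATPase inhibitor 2 rose, SLC25A11 (0.50, SE 0.07, adjusted p = 0.000115) and SLC25A4 (0.48), and 0 fell. Of 21 regulators of mitochondrial biogenesis and expression 1 rose, SSBP1 (0.23), and 3 fell, MYC (-0.36, SE 0.07, adjusted p = 0.000999), TEFM (-0.46) and POLRMT (-0.55), counts near the shares of all genes. Median changes were 0.27 for the electron carriers, 0.20 for assembly factors, 0.19 for the TCA list, 0.18 for mitochondrial carriers and -0.13 for regulators.

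The counts of these lists in siMPS1 at 48 h are to be read beside the 15.7% of all genes that rose and 13.5% that fell against siNeg. The carriers of electrons had 1 risen, ETFB (0.74, SE 0.11, adjusted p = 6.18e-05), and 3 fallen, CYC1 (-0.45, SE 0.07, adjusted p = 0.000162), cytochrome c1, a part of complex III that the symbols used to choose the members leave out, CYCS (-0.23), which is cytochrome c itself, and HCCS (-0.23), which attaches its heme. Of the TCA cycle list 2 rose and 5 fell of 16, with the isocitrate dehydrogenase subunits IDH3A (-0.60, SE 0.08, adjusted p = 1.67e-05) and IDH3G (-0.52, SE 0.07, adjusted p = 3.32e-05) and the pyruvate dehydrogenase complex subunits DLAT (-0.37) and DLD (-0.23) among the fallen. Of the carriers and porins 0 rose and 3 of 8 fell: SLC25A11 (-0.72, SE 0.07, adjusted p = 6.57e-07), the oxoglutarate carrier, VDAC1 (-0.32), a pore of the outer membrane, and SLC25A5 (-0.18), an ADP/ATP translocase. Of 29 assembly factors 1 rose and 3 fell, OXA1L (-0.48, SE 0.10, adjusted p = 0.00187), the inner-membrane insertase, having the smallest p, which is below the share of all genes. Of 21 regulators 0 rose and 1 fell, MYC (-0.26, SE 0.07, adjusted p = 0.00615), also below that share, and NRF1, GABPA, YY1 and TFAM were not called. Against Control at 48 h, where 15.3% of all genes rose and 12.2% fell, the electron carriers had 1 risen and 4 fallen, the TCA cycle list 1 and 5, the carriers and porins 0 and 1, the assembly factors 2 and 4 and the regulators 4 and 4. CYC1 (-0.33), IDH3A (-0.54), SLC25A11 (-0.47) and OXA1L (-0.36) fell there too, VDAC1 (-0.15) and SLC25A5 (-0.17) were not called, and the regulators TWNK (0.55) and POLRMT (0.53) rose.

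Other probe sets of the called members had the same sign in 17 of 20 cases for Control 48 h minus 24 h, 9 of 13 for siMPS1 against siNeg at 6 h, 4 of 6 for siMPS1 against siNeg at 48 h and 5 of 7 against Control at 48 h. The share was lower at 24 h, 0 of 1 against siNeg and 4 of 8 against Control, and in 1 of 3 cases for siMPS1 against Control at 6 h and 1 of 2 for siNeg against Control at 6 h, and it was 9 of 10 for Control 24 h minus 6 h. The opposite signs in Control 48 h minus 24 h were those of ATP5F1C (-0.70), ATP5PO (-0.59) and NDUFB8 (-0.22), and the probe sets used there gave 0.31, 0.20 and 0.48.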

How the data were processed

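RNA of the U251 cells, 250 ng per sample per the labels' protocols, was hybridised to 18 Affymetrix human expression arrays. The values were deposited by the authors as log2 signals from MAS5, per the submitters' processing notes, which give no version. Base 2 was taken because the 2% trimmed mean of the back-transformed signals was then 100.1 on every array. No further scaling between arrays was applied, and log2(signal + 3) was used. Of 22277 probe sets, 62 were controls, 19064 name 1 gene, 1043 several and 2108 none, by GEO's platform annotation, with symbols updated through RefSeq for 19052. Of all probe sets other than controls, the 40% with the lowest means were left out. Of the rest that name 1 gene, the brightest probe set stood for each gene, which left 7828 genes. limma 3.58.1 in R 4.3.3 fitted 9 group means with an intensity trend in the variance (9 residual and 8.57 prior degrees of freedom), over 14 comparisons. The script was tested on simulated data. Named genes were, for each comparison, at most 10 called members per direction by fold change, the brightest of each complex, the isoform pairs, the c-subunit genes and at most 4 called genes per pathway list. Further members were named after their values were seen, to account for each complex. The members and lists were chosen with earlier results of these data known. Alternatives covered the pseudocount, scaling, filter, probe set choice, variance trend, samples in the fit, a replicate block and each array left out.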

Additional observations from a re-analysis of the deposited data

Results flagged for a closer look

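The results singled out here are members for which the difference of siMPS1 minus siNeg was not the same at 2 times, by a test of that difference itself in limma (adjusted p under 0.05 over 7828 genes). The 3 pairs of times share arrays, so their lists are not independent.

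From 6 to 24 h, 3 of 64 members had a change of the difference, all downward, beside 1.80% of all genes that changed downward: NDUFA3 (-0.77, SE 0.16, adjusted p = 0.0131), NDUFA13 (-0.45, SE 0.10, adjusted p = 0.0122) and COX6C (-0.33, SE 0.09, adjusted p = 0.0403). None was kept under every alternative, and the count was 0 without siMPS1 6 h replicate 2 and 1 without siNeg 24 h replicate 1 or siNeg 6 h replicate 1.

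From 24 to 48 h, 3 changed upward and 10 downward, beside 8.93% and 6.83% of all genes. Downward were ATP5PD (-0.52, SE 0.10, adjusted p = 0.0011), UQCR10 (-0.50, SE 0.11, adjusted p = 0.00607), NDUFS4 (-0.49, SE 0.10, adjusted p = 0.00222), ATP5F1D (-0.42), ATP5F1B (-0.41), NDUFB4 (-0.35), UQCRQ (-0.32), ATP5MC2 (-0.30), ATP5PB (-0.28) and COX8A (-0.26). Upward were NDUFB8 (0.36), NDUFA1 (0.32) and NDUFS6 (0.30). Over this interval the mean of NDUFB8 changed by 0.38 in siMPS1, 0.02 in siNeg and 0.48 in Control. NDUFA1 changed by 0.42, 0.10 and 0.45 and NDUFS6 by 0.35, 0.06 and 0.23 in the same order. In these 3 genes siNeg moved least and Control rose as well, and differences from Control were not tested here. Among the downward members, ATP5F1B changed by 0.01, 0.42 and 0.16 and ATP5PD by -0.23, 0.29 and 0.31 in the same order. Of the 10 downward members 5 were ATP synthase genes and 2 genes of complex III. The calls of ATP5F1B, ATP5PD, NDUFB4, NDUFS4 and UQCR10 were kept under every alternative, and the count was 6 without siNeg 24 h replicate 1. KRT8 changed upward over the same interval (0.51) and NES downward (-0.35), and their part was not tested.

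From 6 to 48 h, 3 changed upward and 18 downward, beside 10.9% and 9.30% of all genes. The downward changes of largest size were NDUFA3 (-0.59, SE 0.16, adjusted p = 0.0165), COX8A (-0.53, SE 0.08, adjusted p = 0.000112), ATP5PD (-0.52, SE 0.10, adjusted p = 0.000927), UQCRC1 (-0.49), UQCR10 (-0.48), ATP5MC3 (-0.44), NDUFS4 (-0.43), NDUFB4 (-0.43), ATP5F1B (-0.41) and COX6C (-0.39). Upward were NDUFB1 (0.52, SE 0.11, adjusted p = 0.00332), NDUFB8 (0.32) and COX7A2 (0.31). A downward change is relative to siNeg: the means of NDUFA3, UQCRC1 and ATP5F1B changed by 0.28, 0.335 and 0.26 in siMPS1. They changed by 0.87, 0.82 and 0.67 in siNeg and by 0.67, 0.52 and 0.35 in Control. COX8A, NDUFS4 and COX6C changed by -0.13, -0.16 and -0.27 in siMPS1 and upward in siNeg and Control. Of these 21 calls 11 were kept under every alternative, COX8A, ATP5PD and NDUFB1 among them, and the count was 11 without siNeg 48 h replicate 1. The 3′ to 5′ ratio of ACTB was 0.87 to 0.92 in the siMPS1 arrays at 48 h, and of the glial lineage markers 0 changed upward and 2 of 6 downward from 6 to 48 h, NES (-0.60) and VIM (-0.51). Their part was not tested.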

How the results depend on the processing

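Of 140 member counts recomputed over 14 comparisons and 10 settings, 111 stayed within 1.5 times, with rises and falls counted together. A count within that bound can hold a changed direction. Control 24 h minus 6 h, with 23 risen and 3 fallen, is among the 111 though median centring gave 4 and 14. Median centring gave 8 for siMPS1 against siNeg at 6 h, all risen, and 1 for its change from 6 to 24 h, downward. For siMPS1 against Control it gave 20 at 6 h, all fallen, and 26 at 24 h, all risen. The 20 stood against 5 risen and 1 fallen without centring. For siNeg against Control it gave 33 at 6 h, all fallen, and 4 at 24 h, all risen. For Control 48 h minus 24 h it gave 56, all risen. Quantile normalization gave 10 for siMPS1 against Control at 6 h. With no intensity trend the counts were 3 and 0 for siMPS1 against siNeg at 6 and 24 h, 2, 7 and 11 against Control at 6, 24 and 48 h, 1 for siNeg against Control at 6 h, and 0 and 7 for the changes from 6 to 24 h and from 24 to 48 h. Fitting only the compared groups, which leaves fewer samples, gave 1 and 13 for siMPS1 against siNeg at 24 and 48 h, 5 and 11 against Control at 24 and 48 h, 2 for siNeg against Control at 24 h and 7 for the change from 24 to 48 h. No filter gave 3 for siMPS1 against siNeg at 24 h, 9 against Control at 24 h and 2 for siNeg against Control at 6 h. For siNeg against Control at 24 h, a pseudocount of 10 gave 1, leaving out the lowest 60% gave 3 and the mean of probe sets gave 1, and the mean gave 5 at 48 h.

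Leaving out 1 array gave, at 6, 24 and 48 h, 1 to 17, 0 to 7 and 13 to 23 for siMPS1 against siNeg, 1 to 8, 3 to 16 and 11 to 24 against Control, and 0 to 4, 0 to 2 and 1 to 4 for siNeg against Control. It gave 14 to 27 for Control 24 h minus 6 h, 22 to 38 for Control 48 h minus 24 h, and 0 to 4, 6 to 14 and 11 to 24 for the changes from 6 to 24 h, 24 to 48 h and 6 to 48 h. The array left alone in its group is then assumed to vary like the others.

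Of 191 single calls, 3 reversed with median centring, all in Control 24 h minus 6 h: ATP5PD (-0.013), COX7A2L (-0.0009) and NDUFB4 (-0.036). With the mean of probe sets, 4 reversed: ATP5PO in siMPS1 against siNeg at 24 h (-0.12), against Control at 24 h (-0.072) and in Control 48 h minus 24 h (-0.19), and NDUFA6 in Control 24 h minus 6 h (-0.043). The cause was not tested. The replicate block, with the replicate number as a term, gave 36 for Control 48 h minus 24 h, 15 and 21 for siMPS1 against siNeg at 6 and 48 h, and lost 4 of the 191 calls. The numbers did not pair the samples: deviations of same-numbered arrays correlated between -0.14 and 0.10 over 36 pairs of groups. The number of arrays, 2 a group, limits which small changes could be called.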
